A study of Mus musculus with 18 samples.

Results

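The genes of conjugation, the second phase of xenobiotic metabolism, were followed in cultures of mouse small intestinal epithelium. Members were chosen by symbol alone: glutathione S-transferases of the alpha, mu, omega, pi, theta, kappa and zeta classes (Gsta, Gstm, Gsto, Gstp, Gstt, Gstk and Gstz), microsomal glutathione S-transferases (Mgst), UDP-glucuronosyltransferases of families 1A, 2A and 2B (Ugt1a, Ugt2a and Ugt2b) and cytosolic sulfotransferases (Sult). This gave 65 members among the 55414 rows of the table. Of these, 44 were detected, that is, had a mean of at least 1 CPM (counts scaled to library size) in at least 1 of the 6 groups. They were 21 of 22 glutathione S-transferases (GST), 3 of 3 Mgst, 14 of 19 UGT and 6 of 21 SULT members. Of the 21 members below that level, 12 had no count in any library.

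All 18 libraries came from wild-type C57BL/6J mice, 3 in each of 6 groups, and the series calls the replicates biological. The Matrigel cultures, embedded in a gel of basement membrane proteins, held crypts in ENR medium, which supplies EGF, Noggin and R-spondin, untreated (MG_Control) or with 5-fluorouracil (MG_5FU). Collagen type I cultures held crypts in ENRW medium, untreated (COL_Control) or with 5-fluorouracil (COL_5FU), or in collagen with 25% cWRNE medium (COL_cWRNE). Villi scraped from the intestine next to the pylorus were grown in collagen with 25% cWRNE medium (VIL). 5-Fluorouracil (5-FU), a pyrimidine analog used in chemotherapy, was given at 40 µM from day 4 to harvest on day 6. Collagen and Matrigel cultures also differed in medium (ENRW against ENR), so the effect of the matrix and that of the medium cannot be told apart.

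Glutathione S-transferases join the tripeptide glutathione to electrophiles, UGT enzymes of the endoplasmic reticulum transfer glucuronic acid from UDP-glucuronate to drugs, bile pigments and steroids, and sulfotransferases move sulfate from the donor PAPS to hydroxyl and amino groups. The conjugates are more soluble in water and leave the cell through efflux pumps. In the small intestine these enzymes are most abundant in mature absorptive cells, where they form part of the barrier to ingested compounds. Many lie in clusters of closely related genes, and the Ugt1a genes join different first exons to a common set of last exons.

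Library totals ranged from 22.3 to 34.5 M estimated counts, and all 8 epithelial markers were above 1 CPM in every group. All VIL libraries stood apart, replicates 2 and 3 the most. In them 11 immune markers summed to 998, 2895 and 4030 CPM, and to at most 133 CPM elsewhere. The 14 fibroblast and smooth muscle markers summed to 51.2, 801 and 767 CPM in VIL and to at most 13.9 CPM elsewhere. The 17 absorptive enterocyte markers summed to 5178 to 5956 CPM in MG_Control, 13648 to 14612 in MG_5FU, 755 to 1666 in COL_Control, 677 to 711 in COL_5FU, 768 to 1045 in COL_cWRNE and 1198 to 4238 in VIL. In bulk RNA, fewer cells of a type and less RNA per cell cannot be told apart. A stretch of sequence that 2 genes share can place reads on either gene, and 16 of the 44 detected members shared over 20% of their 50-base stretches with another gene of the GENCODE M21 annotation. The highest were Ugt1a6a (96%), Gsta1 (89.7%), Ugt1a6b (79.8%), the other Ugt1a genes (54.2% to 63.7%), Gstp1 (51%) and Gstp2 (50.4%), so that single values of these genes are uncertain. Ugt2b5 (41.7%) and Ugt2b38 (37.4%) shared most with each other, so single values of the less abundant Ugt2b38 are uncertain too. For 25 of the 44 the share was under 5%.

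Summed over all 65 members, the level was highest in MG_5FU (15535 ± 1064 CPM; SD, n = 3) and lowest in COL_5FU (3362 ± 321 CPM). MG_Control stood at 9664 ± 962, COL_Control at 3648 ± 435, COL_cWRNE at 4440 ± 748 and VIL at 6658 ± 855 CPM. Of the 44 detected members, 30 had their highest mean CPM in MG_5FU and 8 in VIL, while 26 had their lowest in COL_5FU and 9 in COL_cWRNE. With the deposited TPM in place of CPM, 20 of the 44 were highest in MG_5FU. GST genes made up most of the sum in every group, from 2413 ± 265 CPM in COL_5FU to 11003 ± 702 CPM in MG_5FU.

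**Figure D1:**
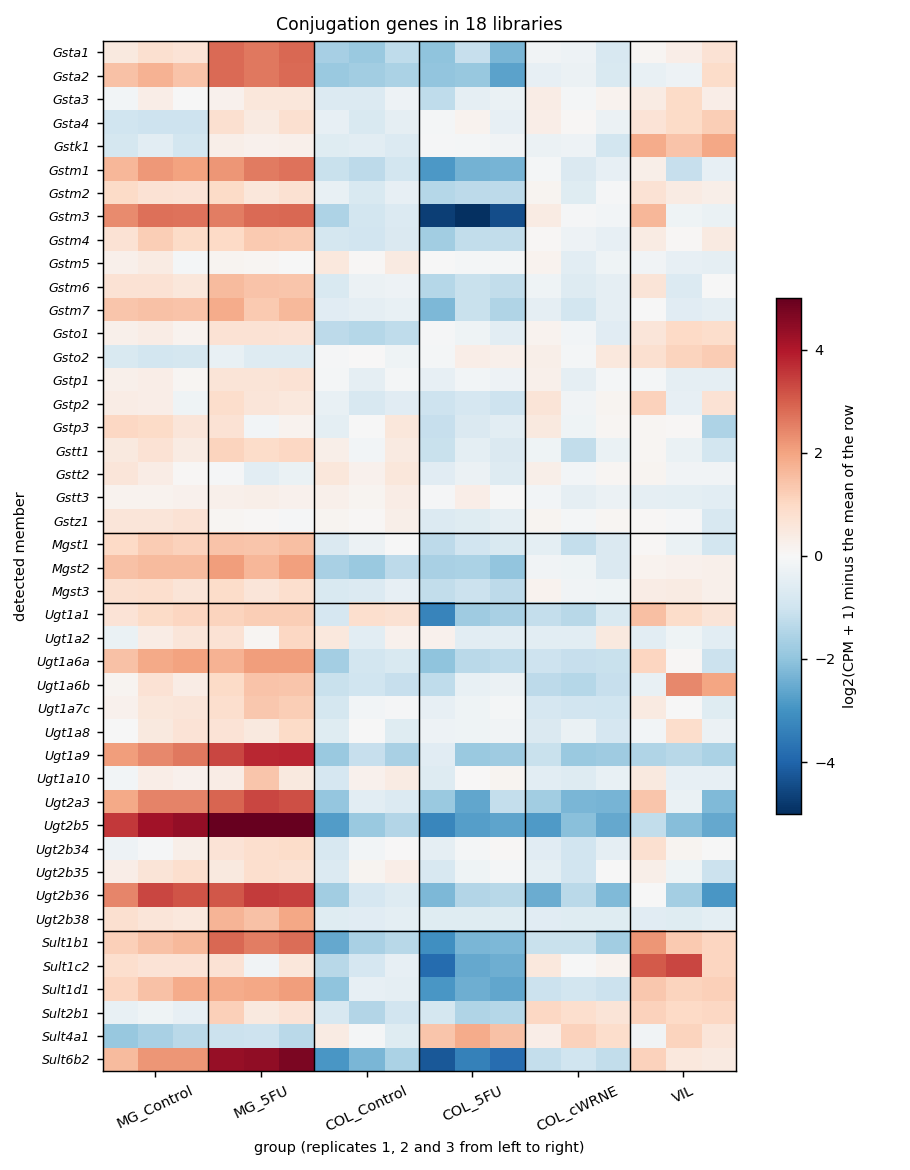
Heat map of the 44 detected members (rows, with lines between the GST, Mgst, UGT and SULT classes) in the 18 libraries (columns, grouped by condition). Colour gives log2(CPM + 1) minus the mean of the row, with values beyond 5 in either direction drawn at the end of the scale, so colours compare libraries within a gene, not genes with each other; most rows are darkest red in MG_5FU.

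Between genes, levels were compared in TPM, which accounts for transcript length. Gstp1, the pi-class enzyme, led in MG_Control with 2629 ± 136 TPM (19.8% of the summed TPM of all members). It was followed by the mu-class genes Gstm1 (2343 ± 401) and Gstm3 (1463 ± 303), the alpha-class gene Gsta1 (1124 ± 158) and the membrane-bound enzyme Mgst1 (1032 ± 132). In MG_5FU the first place went to Gsta1 with 4048 ± 301 TPM, or 22.2% of the sum. In COL_Control Gstp1 alone held 35.6% of the summed TPM and Gsta4, an alpha-class enzyme that acts on the lipid peroxidation product 4-hydroxynonenal, was second with 10.8%. In COL_5FU the same 2 genes held 53.2%. In VIL, Gstp1 (18.7%), Gsta4 (17.4%) and Gsto1 (13.3%), the omega-class enzyme that reduces dehydroascorbate and methylated arsenic, were the leading members. Among the UGT members the order of mean TPM differed between untreated Matrigel and collagen cultures. Ugt1a6a (242 ± 60.9 TPM), Ugt1a7c (181 ± 36.1) and Ugt2b34 (171 ± 46.5) led in MG_Control, and Ugt2b34 (161 ± 45.1) and Ugt1a7c (125 ± 35.9) in COL_Control. In each group the ranges of mean ± SD of these leading genes overlapped. The SD is that between libraries, and the order within single libraries was not tested. Ugt1a6a shared 94.2% of its 50-base stretches with Ugt1a7c, so their order is uncertain. Of the SULT members Sult1b1 (75.3 ± 15.5 TPM) and Sult6b2 (62.4 ± 17.8) led in MG_Control, within each other's spread.

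The comparison of untreated crypt cultures in collagen and in Matrigel asked how the setting of growth bears on these genes. Most members were lower in collagen. Of 46 members tested, 31 were lower and 3 higher by edgeR, against 31.2% of all 16611 genes called, 15.4% lower and 15.8% higher. The members' median difference was -1.35 on the log2 scale, and that of all genes tested 0.04. All 3 Mgst members, 13 of 21 GST, 10 of 16 UGT and 5 of 6 SULT members tested were lower. The 17 absorptive enterocyte markers moved with them (13 lower, 0 higher, median -2.90), as did 5 of 6 Paneth, 5 of 6 goblet, 6 of 7 enteroendocrine and 4 of 6 tuft cell markers, while 1 of 8 cycling cell markers was lower; their part in the result was not tested.

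Among the mu-class genes, which lie next to each other on chromosome 3 in the order Gstm5, Gstm7, Gstm6, Gstm3, Gstm2, Gstm1 and Gstm4, 6 of 7 were lower in collagen. Gstm1 was at 1552, 2182 and 1973 CPM in MG_Control and at 221, 197 and 257 CPM in COL_Control, a difference of -3.09 ± 0.19 (log2 ± SE, edgeR adjusted p = 1.84e-07). Gstm3 was at 1057, 1410 and 1381 against 70.4, 109 and 130 CPM (-3.65 ± 0.24, edgeR adjusted p = 2.77e-07). For both genes every collagen library lay below every Matrigel library by several fold. Gstm6 was at 58.3, 58.6 and 52.8 against 20.3, 28 and 29.1 CPM (-1.14 ± 0.14). Gstm4 (-1.89 ± 0.17), Gstm7 (-2.03 ± 0.27) and Gstm2 (-1.32 ± 0.13) were lower too. Gstm5, at one end of the row, was at 58.6 ± 9.95 CPM in Matrigel and 66.2 ± 10.9 CPM in collagen (0.17 ± 0.13, edgeR adjusted p = 0.38), and its groups overlapped.

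The alpha-class genes divided. Gsta1, the intestinal alpha-class enzyme, was at 497, 611 and 560 CPM in MG_Control and 111, 95.2 and 145 CPM in COL_Control (-2.26 ± 0.24, edgeR adjusted p = 1.23e-05). Gsta2 was at 40.5, 48.5 and 39 against 3.19, 3.49 and 3.95 CPM (-3.60 ± 0.21, edgeR adjusted p = 1.34e-07). Both were lower in every collagen library. Gsta4 was at 249, 248 and 244 CPM in Matrigel and 376, 299 and 371 CPM in collagen, higher in collagen by 0.49 ± 0.14 (edgeR adjusted p = 0.0176), a call lost without COL_Control replicate 1 or 3 (adjusted p = 0.062 and 0.0604). Gsto1 was lower, at 617, 677 and 582 against 209, 190 and 215 CPM (-1.62 ± 0.11). The sparsely counted Gsto2 was higher, at 0.108, 0 and 0.0303 against 0.822, 0.905 and 0.652 CPM (4.00 ± 0.80, edgeR adjusted p = 0.00186). Gstz1, the zeta-class enzyme that isomerizes maleylacetoacetate in tyrosine breakdown, was at 50.7, 51.5 and 54.6 against 36, 34.6 and 40.2 CPM (-0.51 ± 0.10).

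The GST members with the smallest differences between the matrices included Gstp1, the kappa-class gene Gstk1 and the theta-class genes. Gstp1 was at 1153, 1228 and 1041 CPM in Matrigel and 899, 705 and 906 CPM in collagen, a called but small difference of -0.46 ± 0.11 (edgeR adjusted p = 0.00517). Gstt3 was at 148, 147 and 149 and 156, 141 and 167 CPM (0.06 ± 0.11, edgeR adjusted p = 0.748), and the groups overlapped. Gstk1, the mitochondrial and peroxisomal enzyme, was at 9.97, 12.8 and 9.7 and 12.1, 12.9 and 11.6 CPM (0.17 ± 0.14, edgeR adjusted p = 0.421). Among the membrane-bound enzymes, Mgst2, which can also form leukotriene C4, differed most, at 107, 115 and 114 CPM against 11.7, 9.75 and 14.5 CPM (-3.24 ± 0.17, edgeR adjusted p = 4.52e-08). Mgst1 was at 395, 467 and 442 against 117, 159 and 192 CPM (-1.49 ± 0.17) and Mgst3 at 329, 340 and 292 against 112, 117 and 143 CPM (-1.38 ± 0.12). No collagen library reached a Matrigel library for any Mgst member.

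Some UGT members were nearly absent in collagen, while others differed little. Ugt2b5, a steroid and drug glucuronidating enzyme, went from 119, 190 and 219 CPM to 0.474, 1.88 and 2.79 CPM (-6.72 ± 0.47, edgeR adjusted p = 3.69e-07), and Ugt1a9 from 14.7, 18 and 21.5 CPM to 0, 0.637 and 0.181 CPM (-6.05 ± 0.86). Ugt2b36 (-4.38 ± 0.37), Ugt2a3 (-3.62 ± 0.50) and Ugt2b38 (-4.84 ± 0.69) were also lower. Ugt2b5 and these 3 genes sit in one cluster on chromosome 5 with Ugt2b34 and Ugt2b35, which did not pass. Ugt2b34 was at 311, 356 and 451 CPM in Matrigel and 211, 331 and 374 CPM in collagen (-0.30 ± 0.20, edgeR adjusted p = 0.291), and the groups overlapped. Ugt2b37, with 19 counts over MG_Control and 0 over COL_Control, was at least 6.05-fold lower, taking the 3 counts that a sum of 0 allows.

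In the Ugt1a cluster on chromosome 1, Ugt1a6a, a phenol glucuronidating enzyme, was at 327, 444 and 478 CPM in Matrigel and 36.3, 62.6 and 69.3 CPM in collagen (-2.90 ± 0.26, edgeR adjusted p = 2.91e-06). Ugt1a7c was at 347, 443 and 459 against 162, 275 and 292 CPM (-0.79 ± 0.20). Ugt1a1, the bilirubin glucuronidating enzyme, was at 100, 121 and 132 CPM in Matrigel and 34.6, 113 and 107 CPM in collagen (-0.48 ± 0.41, edgeR adjusted p = 0.409). The spread of Ugt1a1 came from COL_Control replicate 1, the library that was also lowest in the summed absorptive enterocyte markers (755 against 1377 and 1666 CPM).

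SULT members tested were lower in collagen, apart from Sult4a1, a brain-type sulfotransferase, which was at 0.433, 0.711 and 1.09 CPM in MG_Control and 6.01, 4.02 and 2.5 CPM in COL_Control (2.45 ± 0.38, edgeR adjusted p = 0.000297). Sult6b2 was at 61.1, 93.7 and 95.6 CPM in Matrigel and 1.74, 3.25 and 5.98 CPM in collagen (-4.54 ± 0.39, edgeR adjusted p = 2.04e-06). Sult1b1, which acts on thyroid hormones and small phenols, was at 48.4, 58.3 and 64.7 against 2.66, 5.93 and 7.07 CPM (-3.47 ± 0.31). Sult1d1, which sulfates catecholamines, was at 44, 56.9 and 75.6 against 4.2, 14.9 and 14.4 CPM (-2.42 ± 0.36). Those 3 genes were lower in every collagen library. Sult2b1, a cholesterol sulfotransferase, was at 13.3, 14.9 and 12.9 against 9.67, 5.7 and 8.66 CPM (-0.78 ± 0.25, edgeR adjusted p = 0.0298). Of the 30 detected members called lower, Gsta3, Sult1c2, Sult2b1 and Ugt1a8 lost their calls without at least 1 of the 6 libraries (adjusted p up to 0.206, 0.104, 0.119 and 0.0944), and each of the 6 ended at least 1 of those calls.

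**Figure D2:**
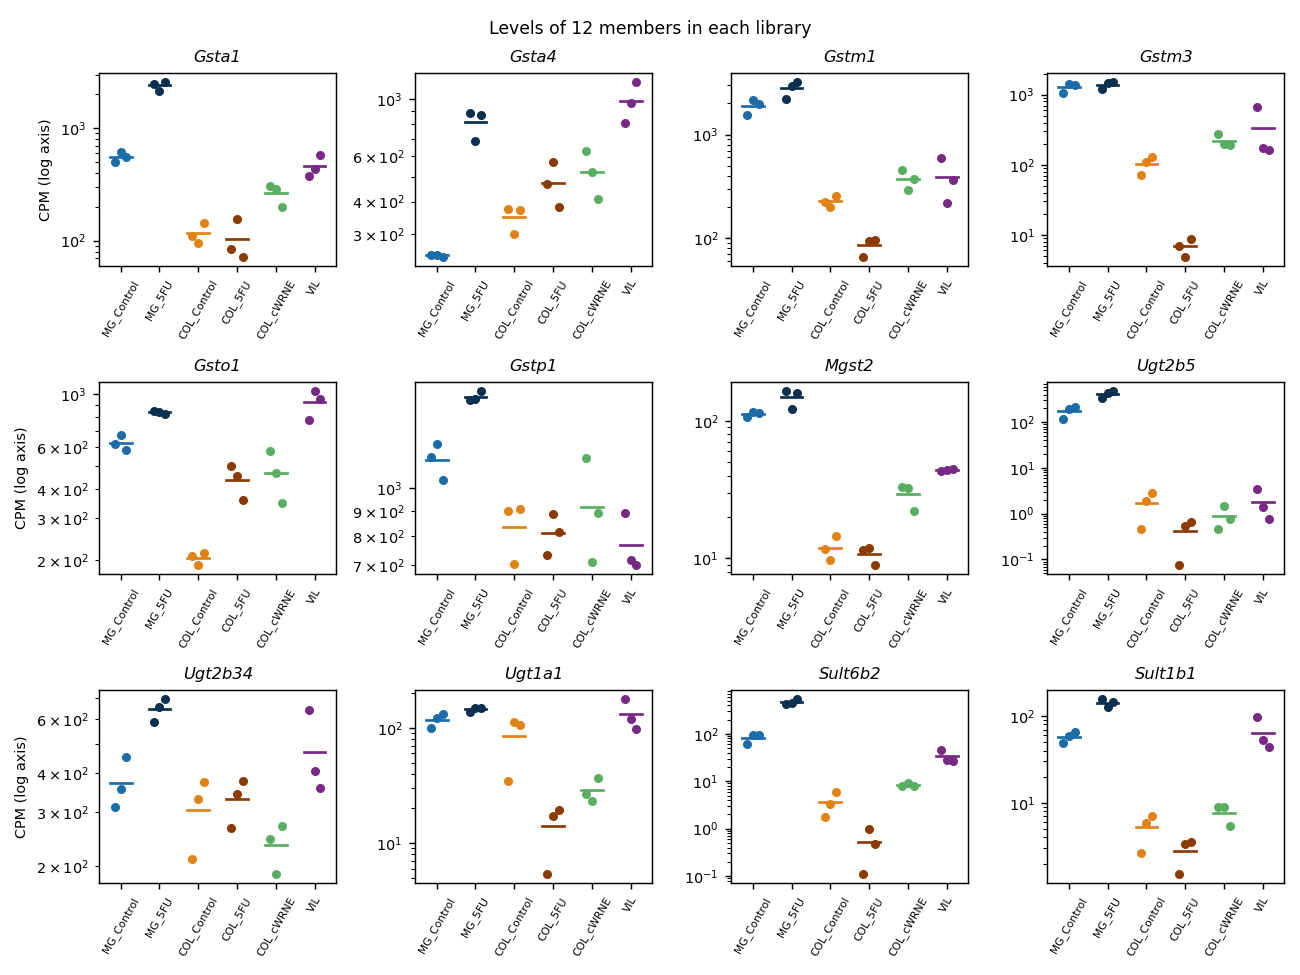
CPM of 12 members in each of the 18 libraries (points, log axis, a separate scale for each gene) with the mean of each group of 3 (line). Gsta1, Gstm3, Ugt2b5 and Sult6b2 span more than 1 order of magnitude between the Matrigel and collagen groups, while the means of Gstp1 lie between 768 and 1529 CPM.

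Upstream sequences are shown for 5 of the detected members that carry a pattern of HNF1 or NRF2, transcription factors of epithelial and stress response genes. Gsta3 and Gstm7 also carry the NRF2 pattern and are not shown. Windows from 250 bases before to 50 after the start of transcription were matched for 58 of the 65 members and 40 of the 44 detected ones (RefSeq, GRCm38.p6), and 17 short patterns, chosen after the levels were seen, were searched on both strands. A member counted when any of its windows matched, whereas the shares of all windows are over single windows. A loose HNF1 pattern (GTTAAT, any 2 bases, TT, any 2 bases and C) was found in the windows of Ugt1a9, Ugt1a10 and Sult1d1, 3 of the 40 detected members, and in 0.265% of all 32851 windows. The NRF2 pattern TGACNNNGC was found for 4 of the 40 (Gsta3, Gstm5, Gstm7 and Mgst1) and in 12.4% of all windows. The stricter HNF1 forms (GTTAAT, any base and ATTAAC, and its core TTAAT, any base and ATTAA) were found for 0 of the 40 and in 0.00913% and 0.122% of all windows. The short form GTTAAT, which the loose form contains, was found for 7 of the 40 (7.1% of all windows). A p53 core pair (CATG, any 6 bases and CATG) was found for 2, Ugt1a9 and Ugt1a10 (0.712%). The AhR core GCGTG was found for 11 (32.4%), TTGCNNAA of C/EBP for 9 (10.8%), TGANTCA of AP-1 for 9 (7.81%), AGATAA of GATA for 8 (11.2%) and the TATA box TATAAA for 7 (13.6%). The CDX forms TTTATTG and TTTATG were found for 1 and 4 (4.6% and 11.9%), an ETS pattern (CCGG and AAGT) for 2 (3.89%) and an HNF4 pattern (CAAAG and TCCA) for 1 (0.475%). Direct repeats of AGGTCA or of AGTTCA, 1 base apart, were found for 0 of the 40 (0.0396% and 0.0122%). Each line gives the 250 bases before the start, 5′ to 3′ on the strand of the gene. Capitals mark the loose HNF1 pattern in the first 3 and the NRF2 pattern in the last 2, on either strand.
Ugt1a9: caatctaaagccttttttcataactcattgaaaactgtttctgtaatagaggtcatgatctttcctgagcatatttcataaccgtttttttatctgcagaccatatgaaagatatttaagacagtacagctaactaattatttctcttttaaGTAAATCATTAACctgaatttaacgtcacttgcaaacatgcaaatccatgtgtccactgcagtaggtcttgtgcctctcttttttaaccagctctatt
Ugt1a10: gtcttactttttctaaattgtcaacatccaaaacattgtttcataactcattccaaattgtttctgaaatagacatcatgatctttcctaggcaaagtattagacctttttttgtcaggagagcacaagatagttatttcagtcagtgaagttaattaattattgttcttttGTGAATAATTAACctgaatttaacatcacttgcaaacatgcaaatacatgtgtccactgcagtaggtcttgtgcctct
Sult1d1: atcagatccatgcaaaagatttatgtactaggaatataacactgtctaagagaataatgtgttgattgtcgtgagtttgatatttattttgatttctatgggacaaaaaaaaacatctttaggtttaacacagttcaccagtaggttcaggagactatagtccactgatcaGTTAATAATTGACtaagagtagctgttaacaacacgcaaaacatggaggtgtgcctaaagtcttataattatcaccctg
Gstm5: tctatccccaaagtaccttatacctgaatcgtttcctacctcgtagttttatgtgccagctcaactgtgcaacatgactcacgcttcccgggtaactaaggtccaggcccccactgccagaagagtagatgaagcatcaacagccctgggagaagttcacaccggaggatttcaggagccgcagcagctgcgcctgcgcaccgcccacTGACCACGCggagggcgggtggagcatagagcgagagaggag
Mgst1: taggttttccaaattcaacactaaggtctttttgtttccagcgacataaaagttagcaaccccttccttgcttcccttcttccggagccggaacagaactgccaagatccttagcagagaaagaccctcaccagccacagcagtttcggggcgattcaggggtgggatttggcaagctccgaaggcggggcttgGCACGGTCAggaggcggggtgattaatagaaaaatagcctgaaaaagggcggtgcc
Ugt1a9 lies at chr1:88070529-88070778 and Ugt1a10 at chr1:88055161-88055410 (plus strand), Sult1d1 at chr5:87569007-87569256 (minus strand), Gstm5 at chr3:107895604-107895853 and Mgst1 at chr6:138140277-138140526 (plus strand).

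The marked bases lie at -98 to -86 in Ugt1a9, -78 to -66 in Ugt1a10, -79 to -67 in Sult1d1, -42 to -34 in Gstm5 and -56 to -48 in Mgst1, counted from the start. Ugt1a9 and Ugt1a10 are alike over 70.4% of 274 aligned positions of these bases, and both hold the loose HNF1 pattern. Ugt1a9 was at 11.2 ± 2.94 TPM in MG_Control and 0.202 ± 0.253 TPM in COL_Control, while Ugt1a10 was at 2.56 ± 1.11 and 1.34 ± 0.642 TPM, its CPM difference being -0.25 ± 0.65 on the log2 scale (edgeR adjusted p = 0.819). Of the 4 detected members with the NRF2 pattern, Gsta3, Gstm7 and Mgst1 were lower in collagen and Gstm5 did not pass. A match is a run of letters, not a measured binding site.

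Under 5-FU the gap between the matrices was wider. Of 46 members tested in COL_5FU against MG_5FU, 38 were lower in collagen and 1 higher, against 35.5% of all genes called, 18.6% lower and 17% higher. The members' median was -2.34 on the log2 scale. The 31 members lower in collagen without 5-FU were all lower with it, and Gstk1, Gstp3, Gstt1, Ugt1a1, Ugt2b34 and Ugt2b35 were called lower under 5-FU and were not called without it. Gsta4 was higher in collagen without 5-FU and lower with it (-0.89 ± 0.14, edgeR adjusted p = 0.000258). Ugt2b5 (-9.97 ± 0.56), Sult6b2 (-9.90 ± 0.52) and Gstm3 (-7.77 ± 0.30) showed the widest differences among members with counts in both groups. Ugt2b38, with 309 counts over MG_5FU and 0 over COL_5FU, was at least 117-fold lower, and Ugt2b37, with 34 and 0 counts, at least 12.9-fold lower. The bound of Ugt2b38 is uncertain, since it shared 34.1% of its 50-base stretches with Ugt2b5. In MG_5FU Ugt2b5 was at 421 ± 76.3 CPM and Ugt2b38 at 4.05 ± 0.769 CPM. How many of the 309 counts came from Ugt2b5 was not tested. Sult4a1 remained higher in collagen (3.29 ± 0.38, edgeR adjusted p = 1.62e-05), and Gstm5, Gstt2, Gstt3, Ugt1a2, Ugt1a10, Ugt2b1 and Gsto2 did not pass. Of the calls, those of Gstk1 (without MG_5FU replicate 1 or 3 or COL_5FU replicate 3, adjusted p up to 0.0538) and Ugt1a8 (without MG_5FU replicate 3 or COL_5FU replicate 1 or 2, adjusted p up to 0.066) were lost when 1 library was left out. The absorptive enterocyte markers were lower for 16 of 17 (median -5.42) and the cycling cell markers higher for 6 of 8 (median 0.50), and their part in the result was not tested.

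The response to 5-FU in Matrigel asked which of these genes the drug moved in crypt cultures there. Nearly all changes were increases. Of 46 members tested, 21 rose and 2 fell by edgeR, against 30.9% of all 16611 genes called, 19.2% higher and 11.7% lower. The members' median was 0.54, and that of all genes 0.06. The 21 were 11 of 21 GST, 1 of 3 Mgst, 6 of 16 UGT and 3 of 6 SULT members tested. When scaled by library totals alone, which moved the median of all genes to -0.09, 14 rose and 2 fell, and with limma on the deposited TPM (median of all genes -0.22) 11 rose and 4 fell. In those fits 33% and 36.7% of all genes were called. Markers of absorptive enterocytes (13 of 17 higher, median 1.57), Paneth cells (6 of 6), goblet cells (5 of 6), enteroendocrine cells (7 of 7) and tuft cells (4 of 6) were higher as well, and those of cycling cells were lower for 7 of 8 (median -1.08); their part in the result was not tested.

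The largest increases were those of Sult6b2, Gsta1 and Gsta4, apart from the sparsely counted Gsto2 (2.74 ± 0.82) and Ugt2b1 (2.83 ± 0.99). Gsta1 went from 497, 611 and 560 CPM to 2493, 2152 and 2585 CPM, a rise of 2.16 ± 0.24 on the log2 scale (4.47-fold, edgeR adjusted p = 1.49e-05). Gsta4 went from 249, 248 and 244 to 888, 689 and 867 CPM (1.77 ± 0.14, edgeR adjusted p = 1.17e-06), and Sult6b2 from 61.1, 93.7 and 95.6 to 424, 446 and 544 CPM (2.54 ± 0.34, edgeR adjusted p = 7.24e-05). In all 3 every treated library lay above every untreated one. Gsta2 reached 105, 92.7 and 106 CPM (1.29 ± 0.19), Gstk1 23.9, 22.1 and 23.2 CPM (1.14 ± 0.14) and Sult1b1 157, 126 and 145 CPM (1.36 ± 0.28). Sult2b1 rose to 41.7, 25.2 and 29.2 CPM (1.27 ± 0.25). Gm3776, a gene model that shares 82.9% of the 50-base stretches of Gsta1, was at 403, 477 and 446 CPM in MG_Control and 1971, 1706 and 2048 CPM in MG_5FU, so the rise of Gsta1 cannot be assigned to 1 of the pair.

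Smaller increases were seen for Gstm6, which reached 108, 96.8 and 93.7 CPM (0.86 ± 0.13, edgeR adjusted p = 0.000254), and for Ugt2b34, which reached 588, 658 and 697 CPM (0.84 ± 0.20). Gsto1 reached 855, 847 and 826 CPM (0.48 ± 0.11) and Gstp1 1506, 1509 and 1573 CPM (0.47 ± 0.11). The treated and untreated libraries did not overlap for these 4 genes. Gstm1 (2225, 2963 and 3229 CPM, 0.60 ± 0.18), Ugt1a7c (548, 768 and 720 CPM, 0.75 ± 0.20) and Mgst2 (166, 122 and 158 CPM, 0.45 ± 0.15) also rose. Their calls, with those of Gstt1, Ugt1a6b, Gsto2 and Ugt2b38, were lost without at least 1 of the 6 libraries, each of which ended at least 1 call. The highest adjusted p among these was 0.118 (Ugt2b38 without MG_5FU replicate 3), and that of Ugt1a7c without MG_Control replicate 1 was 0.0511.

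The 2 members that fell in Matrigel were Gstz1 and Gstt2, a theta-class enzyme with activity toward sulfate esters. Gstz1 reached 35.1, 34.1 and 31.7 CPM and changed by -0.59 ± 0.10 (edgeR adjusted p = 0.000718). Gstt2 went from 98.9, 83.8 and 67.4 CPM to 61, 43.8 and 50.7 CPM (-0.64 ± 0.15, edgeR adjusted p = 0.00612). Both genes fell in collagen too. Among the abundant members that did not pass, Gstm3 reached 1212, 1461 and 1518 CPM (0.17 ± 0.22, edgeR adjusted p = 0.617), Mgst3 356, 287 and 337 CPM (0.08 ± 0.11) and Ugt1a6a 405, 514 and 517 CPM (0.24 ± 0.24). Gstt3 reached 154, 161 and 150 CPM (0.11 ± 0.11), Sult1d1 75.5, 80.1 and 90.3 CPM (0.52 ± 0.33) and Ugt1a1 137, 149 and 149 CPM (0.34 ± 0.40). Mgst1, at 528, 520 and 558 CPM (0.35 ± 0.17, edgeR adjusted p = 0.14), and Gsta3 (0.44 ± 0.22, edgeR adjusted p = 0.147) passed in a fit with the replicate number as a block (adjusted p = 0.0326 and 0.04).

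In collagen the members went mostly the other way. Of 46 tested, 21 fell and 4 rose with 5-FU, against 35.3% of all genes called, 16.7% lower and 18.6% higher. The members' median was -0.56 (-0.53 with Ugt2b38, at 0 counts in COL_5FU, placed at the bound that 3 counts allow), and that of all genes -0.03. Of the 21 GST members tested 13 fell and 3 rose, of the 3 Mgst members 2 fell and of the 6 SULT members 4 fell and 1 rose. Of the 16 UGT members 2 fell (12.5%), near the 16.7% of all genes, but this count depended on the fit. Ugt1a6a, Ugt2b35 and Ugt2b36 were called lower too with the replicate block. The absorptive enterocyte markers moved in the same direction (9 of 17 lower, 3 higher, median -1.49), as did 5 of 6 goblet and 4 of 8 cycling cell markers (median -0.43), while 3 of 7 enteroendocrine markers were higher, and their part in the result was not tested.

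All 7 mu-class members fell. Gstm3 went from 70.4, 109 and 130 CPM to 6.89, 4.85 and 8.7 CPM, a change of -3.95 ± 0.26 on the log2 scale (15.5-fold lower, edgeR adjusted p = 3.15e-07). Gstm1 went to 65.5, 93.1 and 96.1 CPM (-1.45 ± 0.18, edgeR adjusted p = 5.74e-05) and Gstm6 to 12.5, 15.8 and 14.3 CPM (-0.91 ± 0.14). No treated library reached an untreated one for these genes. Gstm7 (-1.38 ± 0.28), Gstm2 (-0.92 ± 0.13), Gstm4 (-0.62 ± 0.17) and Gstm5 (-0.49 ± 0.13) fell as well. Among sulfotransferases, Sult6b2 fell to 0.111, 0.999 and 0.466 CPM (-2.82 ± 0.53, edgeR adjusted p = 0.00104) and Sult1d1 to 1.85, 2.86 and 2.53 CPM (-2.25 ± 0.39). Sult1c2, from 4.58, 7.07 and 10 to 0, 1.43 and 1.63 CPM, fell as well (-2.83 ± 0.62). Sult1b1, at 1.52, 3.35 and 3.55 CPM, was at the edge of the threshold (-0.92 ± 0.33, edgeR adjusted p = 0.0465).

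Of the UGT members, Ugt1a1 went from 34.6, 113 and 107 CPM to 5.41, 17.3 and 19.4 CPM (-2.63 ± 0.44, edgeR adjusted p = 0.000448) and Ugt2b5 from 1.71 ± 1.17 to 0.426 ± 0.312 CPM (-1.96 ± 0.64, edgeR adjusted p = 0.0282). The lowest untreated library of Ugt1a1 was still above the highest treated one. Ugt2b34 stood at 267, 343 and 378 CPM (0.06 ± 0.20), Ugt1a7c at 226, 259 and 279 CPM (0.02 ± 0.20) and Ugt1a6a at 28.6, 46.1 and 49.4 CPM (-0.48 ± 0.25, edgeR adjusted p = 0.151). With the replicate block Ugt1a6a, Ugt2b35 and Ugt2b36 fell as well (adjusted p = 0.00407, 0.0392 and 0.00666), and the call of Gsta2 ended (adjusted p = 0.0504). Without COL_Control replicate 1, Ugt1a6a, Ugt2a3, Ugt2b35, Ugt2b36 and Ugt2b38 were called lower (edgeR adjusted p of 0.0166 to 0.0325). Without COL_5FU replicate 1, Ugt1a2 was called lower and Ugt1a6b higher (edgeR adjusted p = 0.038 and 0.0145). Ugt2a3 was also called lower without COL_5FU replicate 3 (edgeR adjusted p = 0.0169).

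Other GST and Mgst members also fell. Gstz1 reached 20.4, 21.1 and 23.3 CPM (-0.82 ± 0.11, edgeR adjusted p = 6.55e-05), Mgst1 77.8, 99.5 and 114 CPM (-0.73 ± 0.17) and Mgst3 78.9, 89.1 and 76.5 CPM (-0.65 ± 0.12). Gstt1 (-1.06 ± 0.17) and Gstt2 (-1.01 ± 0.15) fell by about as much as each other. Gsta2 was at 2.85, 3 and 1.37 CPM (-0.62 ± 0.23, edgeR adjusted p = 0.048). Members that did not pass included Gsta1 at 84.9, 155 and 71.8 CPM (-0.22 ± 0.23), Gstp1 at 734, 887 and 817 CPM (-0.09 ± 0.11), Mgst2 at 11.6, 11.9 and 8.91 CPM (-0.20 ± 0.16), Gstt3 at 125, 165 and 127 CPM (-0.20 ± 0.11) and Sult2b1 at 9.26, 5.53 and 5.85 CPM (-0.27 ± 0.25). Without COL_5FU replicate 2, its highest library, Gsta1 was called lower (-0.61, adjusted p = 0.0181).

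The 4 members that rose in collagen were Gsto1, Gstk1, Gsta4 and Sult4a1. Gsto1 went from 209, 190 and 215 CPM to 501, 452 and 358 CPM (1.05 ± 0.11, edgeR adjusted p = 1.47e-05), with every treated library above every untreated one. Sult4a1 reached 13.1, 18.2 and 13.7 CPM (1.79 ± 0.35, edgeR adjusted p = 0.00139). Gstk1 reached 18.2, 17.9 and 16.9 CPM (0.49 ± 0.14) and Gsta4 467, 573 and 382 CPM (0.40 ± 0.14, edgeR adjusted p = 0.0418). The call of Gsta4 was lost without COL_Control replicate 2 or 3 or COL_5FU replicate 1 or 2 (adjusted p of 0.0605 to 0.216), and that of Gstk1 without COL_Control replicate 3 (adjusted p = 0.0622). Among the members that fell, the calls of Gsta2, Gstm4, Gstp2, Gstp3, Sult1b1 and Ugt2b5 were lost without at least 1 of the 6 libraries (adjusted p up to 0.15, 0.0528, 0.12, 0.138, 0.199 and 0.137), each of which ended at least 1 call.

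**Figure D3:**
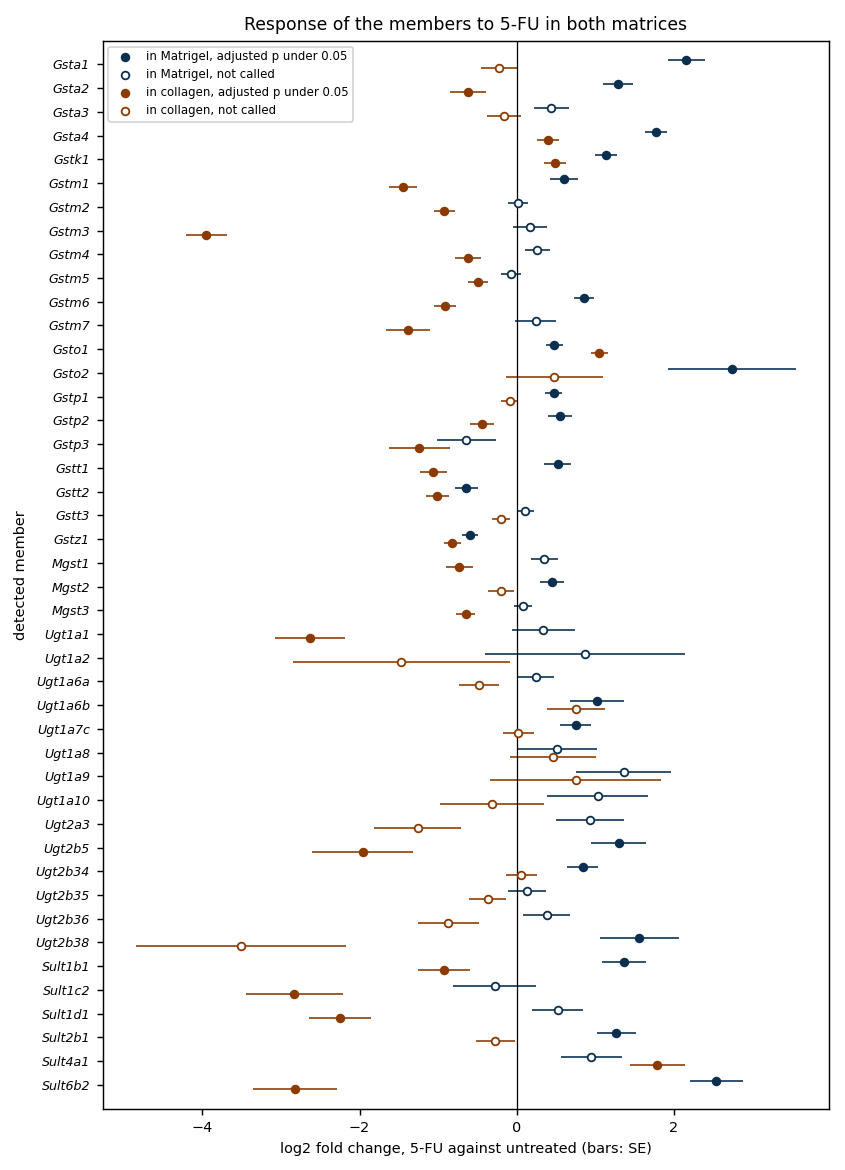
Log2 fold change with 5-FU of each detected member in Matrigel (dark blue) and in collagen (brown), with SE as bars. Filled points passed edgeR at an adjusted p under 0.05; among members with a called interaction the points of Sult6b2 and Gstm3 lie farthest apart, and Gsto1 is among the few with both points filled and to the right of 0.

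Whether the response differed between the matrices was tested as an interaction, the 5-FU effect in collagen minus that in Matrigel. It was called for 21 of 46 members, lower for 20 and higher for 1, against 8.19% of all genes called, 6.3% lower and 1.88% higher. The members' median was -1.03, and that of all genes -0.07. The 20 were 12 of 21 GST, 2 of 3 Mgst, 2 of 16 UGT and 4 of 6 SULT members tested. Sult6b2 showed the largest difference among them, -5.36 ± 0.61 (edgeR adjusted p = 0.000193), having risen in Matrigel and fallen in collagen. Gstm3 (-4.12 ± 0.33, edgeR adjusted p = 3.49e-05) fell in collagen and did not pass in Matrigel, and Gsta1 (-2.38 ± 0.33, edgeR adjusted p = 0.000641) rose in Matrigel and did not pass in collagen. Gstm6 (-1.77 ± 0.19) and Gstm1 (-2.05 ± 0.26) rose in one and fell in the other. In all, 8 members rose in Matrigel and fell in collagen (Gsta2, Gstm1, Gstm6, Gstp2, Gstt1, Sult1b1, Sult6b2 and Ugt2b5), 3 rose in both (Gsta4, Gstk1 and Gsto1) and 2 fell in both (Gstt2 and Gstz1). Of all genes tested, 1.07% rose in Matrigel and fell in collagen. With the replicate block the collagen call of Gsta2 ended (edgeR adjusted p = 0.0504). Without COL_Control replicate 3 the count of 8 was 4 (Gstm1, Gstm6, Gstt1 and Sult6b2), and without COL_Control replicate 2 or COL_5FU replicate 1 it was 5, against 0.765%, 0.969% and 0.795% of all genes.

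Gsto1 was the 1 member with a larger rise in collagen (0.57 ± 0.16, edgeR adjusted p = 0.0401), a call lost when any 1 library other than MG_Control replicate 3 or COL_5FU replicate 3 was left out (adjusted p of 0.0507 to 0.0923). The calls of Gstm4, Gstm7, Gstp1 and Ugt2b5 were also lost without at least 1 library (adjusted p up to 0.0867, 0.0512, 0.0961 and 0.0528). For Gstm4 that held for all but MG_Control replicate 2, MG_5FU replicate 1 and COL_5FU replicate 3, and for Gstp1 for all but MG_Control replicate 2, COL_Control replicate 2 and COL_5FU replicate 2. For Gstm7 it was MG_5FU replicate 1, and for Ugt2b5 COL_Control replicate 3. With the replicate block 26 members and 9.61% of all genes were called. There the interaction of 5 more UGT genes was lower: Ugt1a6a (-0.74, adjusted p = 0.00839), Ugt1a7c (-0.69, 0.0145), Ugt2a3 (-2.20, 0.0368), Ugt2b34 (-0.78, 0.00683) and Ugt2b36 (-1.31, 0.00879). Without COL_Control replicate 1, Ugt1a7c, Ugt2a3, Ugt2b34 and Ugt2b36 were also called (adjusted p of 0.0167 to 0.0436). Of the absorptive enterocyte markers, 12 of 17 had a lower interaction and 0 a higher one (median -2.59), as did 6 of 6 Paneth, 6 of 6 goblet and 4 of 7 enteroendocrine cell markers, while it was higher for 3 of 8 cycling cell markers, and their part in the result was not tested.

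**Figure D4:**
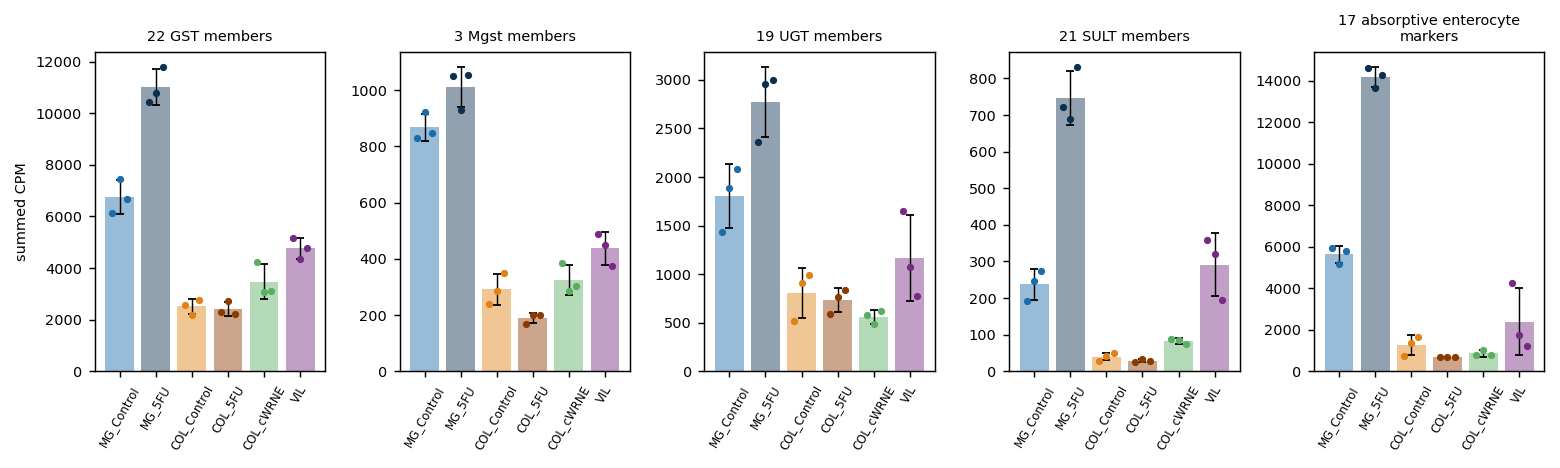
Summed CPM of the GST, Mgst, UGT and SULT members and of 17 absorptive enterocyte markers in the 6 groups. Bars are means of 3 libraries with SD, points are libraries; all 5 panels peak in MG_5FU, and the SULT sum in VIL (291 ± 86.1 CPM) and that in MG_Control (237 ± 41 CPM) overlap in their spread.

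Crypt cultures in collagen with cWRNE medium were compared with those in ENRW medium. Of 47 members tested, 9 were higher and 3 lower with cWRNE, against 18% of all 17708 genes called, 13.1% higher and 4.85% lower. The members' median was -0.03, and that of all genes 0.00. When scaled by library totals alone, which moved the median of all genes to -0.16, 6 were higher and 7 lower. Without COL_cWRNE replicate 2, 7 members were called. In those fits 20.3% and 10.3% of all genes were called. The absorptive enterocyte markers were higher for 1 and lower for 5 of 17.

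Sult2b1 and Mgst2 gave the smallest adjusted p. Sult2b1 was at 9.67, 5.7 and 8.66 CPM in ENRW and 37.2, 32.3 and 28.2 CPM in cWRNE (2.00 ± 0.24, edgeR adjusted p = 3.78e-05), and Mgst2 at 11.7, 9.75 and 14.5 against 33, 32.4 and 22.2 CPM (1.27 ± 0.17, edgeR adjusted p = 0.000127). Gsto1 was at 209, 190 and 215 against 580, 468 and 349 CPM (1.16 ± 0.16, edgeR adjusted p = 0.000174). Every cWRNE library was above every ENRW library for these 3 genes. Gsta1, at 306, 289 and 201 CPM (1.16 ± 0.25), and Gsta2, at 10.2, 11.2 and 7.81 CPM (1.44 ± 0.32), were higher as well. So was Mgst3, at 213, 168 and 164 CPM (0.53 ± 0.13, edgeR adjusted p = 0.00854), a call lost without COL_cWRNE replicate 1 (adjusted p = 0.0712). Sult6b2 at 8.04, 9.26 and 7.95 CPM (1.19 ± 0.38), Gsta4 at 632, 521 and 411 CPM (0.56 ± 0.18) and Gstm4 (0.64 ± 0.17) were called too, but lost the call without most single libraries: Sult6b2 without any of the 6 but COL_Control replicate 3, and the other two without any but COL_cWRNE replicate 3 (adjusted p up to 0.148, 0.226 and 0.131). The call of Gsta4 also ended with the replicate block (adjusted p = 0.056), with which Gsta3 and Gstp2 were called (adjusted p = 0.0368 and 0.0473).

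The 3 members lower in cWRNE were Gstt3, Gstm5 and Ugt1a1. Gstt3 was at 119, 95.5 and 105 CPM (-0.56 ± 0.11, edgeR adjusted p = 0.00255), below every ENRW library. Ugt1a1 was at 26.7, 23.1 and 36.4 CPM (-1.58 ± 0.41, edgeR adjusted p = 0.014), a call lost without COL_Control replicate 2 or 3 or COL_cWRNE replicate 1 or 2 (adjusted p up to 0.0703). Gstm5 (-0.56 ± 0.17) lost its call without COL_Control replicate 1 or 3 or COL_cWRNE replicate 2 or 3 (adjusted p up to 0.115). The mu-class genes Gstm1, at 456, 290 and 368 CPM (0.70 ± 0.28, edgeR adjusted p = 0.0915), and Gstm3, at 276, 199 and 189 CPM (1.09 ± 0.40, edgeR adjusted p = 0.0742), did not pass in the fit of all 18 libraries, although their groups did not overlap. Both were called with the compared groups alone in the fit, and with no filter beyond 1 count. Gstm6 stood at 29.7, 22 and 25.1 CPM, Gstp1 at 1148, 711 and 891, Gstz1 at 36.6, 30.4 and 35.8 and Mgst1 at 138, 84.3 and 117 CPM, none of them called. Ugt1a6a was at 57.7, 53.5 and 54.2 CPM, Ugt1a7c at 167, 157 and 152 and Ugt2b34 at 246, 189 and 270 CPM, also not called. For Ugt1a7c this depended on the fit. It was called lower without COL_Control replicate 1 (-0.85, edgeR adjusted p = 0.0189). Among the other fits that called it were DESeq2, limma on TPM and the compared groups alone.

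Villus-derived cultures were compared with crypt-derived cultures in the same matrix and medium. Members that passed were all higher in the villus-derived cultures. Of 45 tested, 13 were higher and 0 lower by edgeR, against 7.64% of all 16699 genes called, 5.68% higher and 1.96% lower. At an unadjusted p under 0.05, 21 were higher and 0 lower. By DESeq2 18 were higher and 0 lower, against 13.6% of all genes called. By edgeR the members' median was 0.68, and that of all genes -0.03. The count was 8, 5 and 5 without COL_cWRNE replicates 1, 2 and 3 and 7 without VIL replicate 2, and the share of all genes called fell in the same fits, to 2.12%, 2.72%, 2% and 3.94%. VIL replicate 1 had the lowest immune and fibroblast marker sums of the VIL libraries, though higher ones than any library of another group. With it as the 1 villus-derived library, the members' median was 0.81 and that of all genes -0.07. That fit takes the spread from the other groups and assumes that the lone library varies like them. The absorptive enterocyte markers were higher for 5 of 17, with VIL replicate 1 highest (4238 CPM against 1738 and 1198), the immune markers for 7 of 9 and the fibroblast and smooth muscle markers for 10 of 10 tested, and their part in the result was not tested. Proximal small intestine markers were higher for 2 of 6 and lower for 0. They summed to 2025 to 2905 CPM in VIL and 710 to 800 CPM in COL_cWRNE. Of 3 distal small intestine markers tested, 0 were called. The part of the region along the gut was not tested either.

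Of the sulfotransferases, 4 of 7 tested were higher. Sult1d1 was at 9.07, 10.1 and 9 CPM in COL_cWRNE and 52.3, 45.1 and 47.6 CPM in VIL (2.38 ± 0.20, edgeR adjusted p = 0.000442), with little spread among the villus-derived libraries. Sult1b1 was at 8.85, 8.88 and 5.37 against 96.8, 52.4 and 44.5 CPM (3.08 ± 0.33, edgeR adjusted p = 0.0015) and Sult6b2 at 8.04, 9.26 and 7.95 against 45.3, 28.7 and 27.1 CPM (2.02 ± 0.24). Sult1c2 was at 20, 13.4 and 15.2 against 120, 146 and 29.3 CPM (2.62 ± 0.48), a call lost without COL_cWRNE replicate 2 or 3 (adjusted p = 0.0595 and 0.0637). Sult2b1, at 39.9, 36.4 and 37.4 CPM, did not pass. Gstk1 was at 15.5, 15.8 and 9.78 against 70.9, 52.9 and 74.9 CPM (2.29 ± 0.24, edgeR adjusted p = 0.00135) and Ugt1a1 at 26.7, 23.1 and 36.4 against 178, 119 and 98.2 CPM (2.22 ± 0.25, edgeR adjusted p = 0.00213). The calls of Sult1b1, Sult1d1, Sult6b2, Gstk1 and Ugt1a1 were those kept with each of the 6 libraries left out in turn.

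The other 7 calls of detected members were lost without at least 1 library. They were Gsta1 at 379, 436 and 581 CPM (0.83 ± 0.21), Gsta4 at 811, 969 and 1168 (0.93 ± 0.19), Gsto1 at 782, 1039 and 958 (1.01 ± 0.20), Mgst2 at 42.9, 43.7 and 45 (0.60 ± 0.16), Ugt1a7c at 414, 300 and 196 (0.95 ± 0.24), Ugt2b34 at 643, 408 and 359 (1.02 ± 0.24) and Ugt1a6b at 2.74, 25 and 18.2 CPM (3.95 ± 0.70). The libraries that ended at least 1 of these calls were the 3 of COL_cWRNE and VIL replicates 2 and 3, with adjusted p up to 0.138 (Ugt1a7c without COL_cWRNE replicate 3). Ugt1a6b was high in the libraries with the most immune counts, VIL replicates 2 and 3, and was at 2.74 CPM in VIL replicate 1; the part of other cells in its level was not tested. Ugt1a6a was highest in VIL replicate 1, at 250, 123 and 56.8 CPM (1.39 ± 0.42, edgeR adjusted p = 0.0802), and passed without VIL replicate 3 (1.77, adjusted p = 0.00458). Gstm3 was at 659, 176 and 164 CPM, Gstm1 at 588, 218 and 360 and Gstm6 at 54.5, 21.6 and 34.7 CPM, each highest in replicate 1 and not called. Gstp1 was at 891, 715 and 699 CPM, Gstt3 at 95.8, 91.2 and 90.9, Gstz1 at 34.2, 31.3 and 18.6 and Gsta2 at 10.7, 11.6 and 27.2 CPM, and Mgst1 at 203, 154 and 104 and Mgst3 at 242, 252 and 224 CPM, none of them called.

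**Figure D5:**
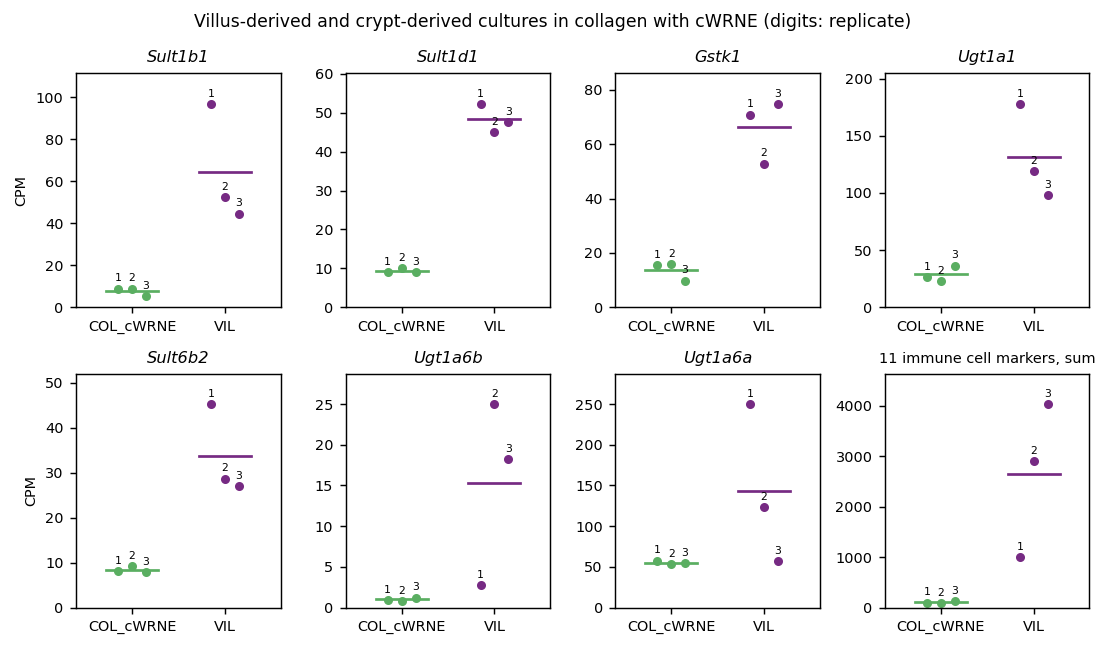
CPM of 7 members and summed CPM of 11 immune cell markers in COL_cWRNE and VIL, with digits giving the replicate and lines the group mean (linear axes from 0, a separate scale for each panel). Sult1b1, Ugt1a1, Sult6b2 and Ugt1a6a are highest in VIL replicate 1, whereas Ugt1a6b and the immune markers are highest in replicates 2 and 3.

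Genes that supply the cofactors, export the products or regulate these enzymes were read from lists chosen with earlier results known. Of 23 genes of glutathione synthesis and recycling, 9 rose (39.1%) and 2 fell (8.7%) with 5-FU in Matrigel, 7 rose and 7 fell (30.4% each) with 5-FU in collagen, and 11 were lower (47.8%) and 2 higher (8.7%) in collagen than in Matrigel. Of all genes tested, 19.2% rose and 11.7% fell in Matrigel, 18.6% rose and 16.7% fell in collagen, and 15.4% were lower and 15.8% higher in collagen than in Matrigel. Gss, glutathione synthetase, rose in both matrices (1.04 ± 0.08 and 0.80 ± 0.08), from 304, 319 and 311 to 614, 632 and 616 CPM in Matrigel. Ggt1, the surface enzyme that breaks down glutathione and its conjugates, was at 65.2, 69.9 and 62.5 CPM in MG_Control and 0.537, 0.905 and 3.52 CPM in COL_Control (-5.36 ± 0.48). Slc7a11, the cystine importer, fell in collagen with 5-FU (-2.23 ± 0.24). Of 12 NRF2 response enzymes 5 rose (41.7%) and 0 fell in Matrigel, 3 rose (25%) and 2 fell (16.7%) in collagen, and 8 were higher (66.7%, against 13.1% of all genes) and 0 lower with cWRNE than with ENRW, among them Akr1b8 (1.79 ± 0.19), Osgin1 (1.67 ± 0.18) and Srxn1 (0.93 ± 0.15). Cbr3, a carbonyl reductase, was lower in collagen (-1.66 ± 0.18) and fell there with 5-FU (-1.87 ± 0.19).

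Of 5 genes tested for UDP-glucuronate supply and glucuronide hydrolysis, Ugdh, which makes UDP-glucuronate, was the 1 lower in untreated collagen cultures, at 328, 382 and 400 CPM against 882, 1012 and 1080 CPM in Matrigel (-1.43 ± 0.14, edgeR adjusted p = 5.36e-06). That 1 of 5 (20%) was near the 15.4% of all genes that were lower in collagen. Of 12 genes for the sulfate donor and sulfate ester hydrolysis, 4 were higher and 4 lower in collagen (33.3% each). Of all genes, 15.8% were higher and 15.4% lower. Papss2, a PAPS synthase, was at 173, 196 and 292 CPM in MG_Control and 14.2, 21.2 and 22.8 CPM in COL_Control (-3.52 ± 0.23, edgeR adjusted p = 2.44e-07). It rose with 5-FU in Matrigel to 433, 512 and 591 CPM (1.26 ± 0.21) and was at 12.8, 14.5 and 11.5 CPM in COL_5FU, with an interaction of -1.89 ± 0.30 (edgeR adjusted p = 0.00189). The sulfate transporter gene Slc26a2 rose with 5-FU in both, by 1.17 ± 0.14 and 2.04 ± 0.14, to 527, 556 and 359 CPM in COL_5FU.

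Of 7 conjugate exporters, 6 rose (85.7%) and 0 fell with 5-FU in Matrigel, 2 rose and 2 fell (28.6% each) in collagen, and 5 had a lower interaction (71.4%, against 6.3% of all genes). Abcc2, which pumps glucuronide and glutathione conjugates across the apical membrane, reached 145, 169 and 166 CPM in MG_5FU (1.09 ± 0.31) and went from 29.3, 50.8 and 44.4 to 3.63, 7.49 and 13.9 CPM in collagen (-2.34 ± 0.34). Abcg2, an exporter of sulfate conjugates, fell in collagen (-1.05 ± 0.15). Abcb1b, a P-glycoprotein gene, rose in both matrices (4.88 ± 0.31 and 2.96 ± 0.27). Of 23 regulators, 2 rose (8.7%) and 7 fell (30.4%) in Matrigel and 5 rose (21.7%) and 12 fell (52.2%) in collagen with 5-FU. Of all genes, 19.2% rose and 11.7% fell in Matrigel and 18.6% rose and 16.7% fell in collagen, so the 5 that rose in collagen were near that share. Nr1i3, which encodes the xenobiotic receptor CAR, was at 24.9, 28.8 and 25 CPM in MG_Control and 1.96, 3.72 and 4.24 CPM in COL_Control (-3.00 ± 0.30). It was at 1.31, 2.27 and 2.14 CPM in COL_cWRNE and 10.7, 9.25 and 5.24 CPM in VIL (2.15 ± 0.31, edgeR adjusted p = 0.00534). Nfe2l2, which encodes NRF2, rose with 5-FU in both matrices (0.46 ± 0.09 and 0.60 ± 0.09).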

How the data were processed

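Bulk RNA sequencing (SMART-Seq cDNA, Nextera XT, NovaSeq X Plus, per the labels) of 18 libraries, 3 per group, was analysed. The authors deposited 1 table of estimated counts per gene and 1 of TPM. bcl2fastq 2.20, DRAGEN and the build GRCm39 (mm39) are named in the submitters' processing notes, and how reads shared by related genes were assigned is not given in the sources used here. Of the nonzero estimated counts 67.8% were whole within 1e-9, and all were rounded to whole numbers. Gene names matched 52081 of 55414 IDs, and 3333 IDs without a symbol were kept in the fits.

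Counts were tested with edgeR 4.0.16 (quasi-likelihood, TMM scaling, filterByExpr with a minimum count of 10 and total of 15) in R 4.3.3, with Benjamini-Hochberg adjustment over all genes and a threshold of 0.05, in 7 comparisons. The 4 groups of the 5-FU design were fitted together, COL_cWRNE and VIL with MG_Control, and cWRNE against ENRW with all 18 libraries. CPM were scaled by TMM over all libraries. On simulated counts 26% to 59% of genes changed 2-fold and 54% to 81% of those changed 4-fold were recovered. Alternatives used DESeq2 1.42.0 and limma 3.58.1 on log2(TPM + 1). Values in every library are given for the 3 members of highest TPM in each class and, per comparison, up to 4 called members with the smallest adjusted p at 5 CPM or more in the higher group. Pathway genes are named as up to 4 per list and comparison by adjusted p, and their values in other comparisons may be given too. Members and lists were chosen with earlier results of these data known. Over the 18 pairs of replicate libraries, chi-square per degree of freedom was at least 10.6, far above sampling noise.

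The deviations of same-numbered libraries correlated above 0.1 for all 3 numbers in 5-FU in Matrigel (0.52, 0.101 and 0.416), 5-FU in collagen (0.413, 0.103 and 0.262) and cWRNE against ENRW (0.174, 0.23 and 0.23), over 11103 genes. There the replicate number was taken as a pairing, from the data and not from the labels, and the blocked value stands beside results it changed. All other counts, medians, SE and adjusted p come from fits by group without the block. The pairing is weakest for number 2 with 5-FU, where the correlations (0.101 and 0.103) barely passed 0.1. In Matrigel number 2 did not correlate best with its own number.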

Additional observations from a re-analysis of the deposited data

Results flagged for a closer look

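For 21 members the response to 5-FU differed between collagen and Matrigel, by the test of the interaction (5-FU effect in collagen minus that in Matrigel, log2 scale, edgeR adjusted p under 0.05). With opposite calls in the 2 matrices were Sult6b2 (-5.36), Ugt2b5 (-3.26), Sult1b1 (-2.28), Gstm1 (-2.05), Gsta2 (-1.91), Gstm6 (-1.77), Gstt1 (-1.59) and Gstp2 (-0.99). The collagen call of Gsta2 ended with the replicate block (edgeR adjusted p = 0.0504). Falling in collagen without a call in Matrigel were Gstm3 (-4.12), Ugt1a1 (-2.98), Sult1d1 (-2.76), Gstm7 (-1.62), Mgst1 (-1.07), Gstm2 (-0.94), Gstm4 (-0.88) and Mgst3 (-0.73). Rising in Matrigel without a call in collagen were Gsta1 (-2.38), Sult2b1 (-1.54) and Gstp1 (-0.56). Gsta4 rose in both, less in collagen (-1.37), and Gsto1 rose in both, more in collagen (0.57).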

How the results depend on the processing

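No member changed direction while called: of the values of single members under the alternatives, 4428 kept their side of the threshold, 298 lost it and 137 gained it. With a fold change of at least 2 required (an absolute log2 fold change of 1), 5-FU called 12 members in Matrigel and 13 in collagen, and cWRNE 7. Of all genes, 13%, 13.4% and 8.71% were called there. limma on TPM called 15 for 5-FU in Matrigel, against 36.7% of all genes. A fit of all 18 libraries called 13 there (22.8% of all genes) and 13 for the interaction (2.94%). The compared groups alone gave 20 for cWRNE (13 higher, 7 lower), against 26.8% of all genes called. Leaving out 1 library gave 16 to 19 calls for the drug in Matrigel, 18 to 28 in collagen, 17 to 23 for the interaction, 29 to 33 and 37 to 39 for collagen against Matrigel without and under 5-FU, 7 to 10 for cWRNE and 5 to 14 for villus-derived cultures. Of all genes, those fits called 24% to 26.9%, 26.6% to 32.5% and 5.41% to 7.58% for the drug in Matrigel, in collagen and the interaction. For the matrix comparisons they called 23.1% to 27.7% and 26.7% to 30.2%. For cWRNE the range was 10.3% to 14.5%, and for villus-derived cultures 2% to 11.6%. The cause of these changes in count was not tested. With library totals 46.2% of the cWRNE calls were higher, against 75% with TMM.

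With the replicate number as a block, the calls were 25, 27, 26, 36, 40, 13 and 10 in the order drug in Matrigel, drug in collagen, interaction, collagen against Matrigel without and under 5-FU, cWRNE and villus-derived. Of all genes, 32.7%, 37.3%, 9.61%, 33.4%, 37.2%, 18.3% and 5.23% were called with the block, in the same order. Calls the block changed in paired comparisons stand in the report, and it changed no other call there. Same-numbered libraries did not all correlate above 0.1 in the matrix comparisons (lowest -0.0608 and 0.04) or the villus comparison (lowest -0.158). There the block added Ugt2b34, Ugt2b35 and Ugt1a10 in the matrix comparisons, and in the villus comparison it added Gstm2 and lost Gsta1, Mgst2, Ugt1a7c and Ugt2b34. Depth limits the members with few counts, such as Ugt2b37.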

Other observations

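The epoxide hydrolases, which open the epoxides that glutathione S-transferases also act on, differed in pattern. Ephx1, the microsomal enzyme, rose with 5-FU in both matrices, from 102, 112 and 113 to 632, 711 and 665 CPM in Matrigel (2.67 ± 0.13 on the log2 scale, edgeR adjusted p = 2.02e-08) and from 181, 126 and 178 to 735, 835 and 744 CPM in collagen (2.21 ± 0.13, edgeR adjusted p = 1.24e-07). Ephx2, the soluble enzyme, was at 82.5, 93.1 and 117 CPM in MG_Control, 186, 233 and 220 in MG_5FU, 12.3, 13.6 and 18.4 in COL_Control and 10.7, 13.7 and 12 CPM in COL_5FU. It was lower in collagen (-2.74 ± 0.18) and its interaction was -1.50 ± 0.24 (edgeR adjusted p = 0.00202). In VIL it was at 101, 105 and 116 CPM against 40.6, 48.5 and 36 CPM in COL_cWRNE (1.38 ± 0.17).

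Thiopurine methyltransferase, Tpmt, fell with 5-FU in both matrices (-0.58 ± 0.15 and -1.03 ± 0.14). The gene models nearest to Gstm3 and Gstm1 in shared sequence, Gm8834 and Gstm2-ps1, were at 10.4 ± 7.21 and 8.5 ± 4.59 CPM in MG_Control and at 0.0979 ± 0.0848 and 0.313 ± 0.207 CPM in COL_5FU (SD, n = 3).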
